A study of Ovis aries with 26 samples.

Results

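Erythroid cells, the precursors of red blood cells, were picked out of single-cell libraries of the developing sheep pancreas by 2 genes. A barcode was taken as erythroid where it held at least 5 unique molecular identifiers (UMIs, the count of captured transcript molecules) of AHSP and at least 1 UMI of ALAS2. The rule was applied to barcodes with over 200 and under 6000 detected genes and under 25% of UMIs from mitochondrial genes. Of 109501 deposited barcodes 79510 were kept, and 274 of these met the rule. There were 178 at 80 days of gestation, 94 at 120 days and 2 at term, which is 65.0%, 34.3% and 0.730% of them.

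The study dissociated pancreas of American Romney sheep with and without the cystic fibrosis gene CFTR and captured cells on the 10x Genomics 3′ platform, giving 26 libraries from 23 animals. At 80 days there were 2 WT, 2 HZ (CFTR+/-) and 3 CF (CFTR-/-) fetuses, at 120 days 3 WT and 6 CF fetuses, and at term 4 WT and 3 CF lambs. WT and HZ animals formed the non-CF group, as in the study. By the study's methods all CF fetuses at 80 days, CF donors 1 to 4 at 120 days and CF donor 3 at term were clones of 1 edited male fibroblast line, and the other CF animals were naturally bred, donors 5 and 6 at 120 days being twins that the sample records give as female. Non-CF donors 2 to 4 at 80 days were triplets. The tissue preparation named in the sample records had a red blood cell lysis step, so the numbers of erythroid barcodes are those that remained after it.

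Red blood cells form from dividing precursors in the fetal liver and later the bone marrow, and circulate through every organ. As they mature they fill with hemoglobin, which needs alpha-like and beta-like globin chains and heme, they stop dividing, and in mammals they lose the nucleus and most other RNA. AHSP is the chaperone of free alpha globin and ALAS2 is the erythroid enzyme of the first step of heme synthesis. Sheep change the beta-like globin they make between embryo, fetus and lamb, so the globin genes carry information on the stage of development.

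The barcodes carried the marker genes of the erythroid lineage beyond the 2 that chose them. AHSP and ALAS2 themselves stood at 4917 and 1238 CPM (counts per 1000000 UMIs) in the pooled erythroid barcodes and at 0.767 and 0.750 CPM in all other kept barcodes. HBM, an alpha-like globin, stood at 3489 against 0.798 CPM. The membrane genes SLC4A1 (the anion exchanger band 3) and RHAG (the Rh-associated glycoprotein) were at 77.0 and 111 CPM, and SLC4A1 was at 0.0402 CPM in the other barcodes. The transcription factors KLF1 and GATA1 were at 194 and 87.5 CPM, with KLF1 at 0.0706 CPM elsewhere. These levels describe the chosen barcodes and were not tested, since the choice used the same cells.

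Few barcodes lay at the border of the rule. With ALAS2 present, 7 kept barcodes had 4 UMIs of AHSP and 8 had 5. Both sets looked alike, with a median of 90.1% and 91.7% of their UMIs in the 2 most abundant genes described next. A further 4 barcodes had enough AHSP but no ALAS2, with a median of 17.2% in those genes, and 3 were in with a single UMI of ALAS2. No barcode sequence among the members was a member in more than 1 library, and 8 of 274 (2.92%) recurred in another library, against 2.89% of all kept barcodes.

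A pair of genes without a symbol dominated the erythroid transcriptome. LOC101106199 held 36.0% and LOC101108797 held 35.4% of all UMIs of the 274 barcodes. In RefSeq's table of the assembly ARS-UI_Ramb_v3.0, LOC101108797 is the immediate neighbour of HBQ1 (theta globin) with 1 gene between it and HBM, and LOC101106199 lies on the chromosome of HBB (adult beta globin) with 2 genes between them. The files name HBM, HBZ and HBQ1 but no HBA, HBB or HBE gene. These 2 genes are called the LOC pair here and are not given a globin name. Another unnamed gene, LOC101105437, had the fourth highest ratio of erythroid to other barcodes and held 0.720% of the erythroid UMIs. It has no entry in that table.

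Among the 20 genes with the highest ratio of erythroid to other barcodes, AHSP, HBM, ALAS2 and FECH serve hemoglobin and heme, and KLF1, NFE2 and HEMGN are nuclear factors of the lineage. XPO7, TRIM10 and TMCC2, which are high in late erythroblasts, GPX1 and BLVRB, which handle peroxides and biliverdin, and TRAK2 were also among them. LOC101105809 and LOC105604200 have no entry in the RefSeq table, and LOC101110916 is named ATP5IF1 (the inhibitor of the mitochondrial ATP synthase) there.

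Erythroid barcodes held few genes for their depth. Their median was 14966 UMIs over 524 genes, while the median of the other barcodes lay between 1594 and 3823 genes and between 3425 and 24633 UMIs in the 26 libraries. The median share of UMIs in the LOC pair was 90.001% at 80 days and 79.9% at 120 days. Library depth ranged from 7841217 UMIs (CF donor 3 at 120 days, whose kept barcodes had a median of 3425 UMIs) to 171256169 UMIs (WT donor 2 at term).

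The share of erythroid barcodes fell with gestation over all animals of both genotypes. All 7 fetuses at 80 days had them. The WT donors 1 and 3 stood at 0.780% (20 of 2565 kept barcodes) and 1.24% (19 of 1537), and the HZ donors 2 and 4 at 0.557% (7 of 1257) and 0.724% (22 of 3039). CF donors 1, 2 and 3 stood at 3.32% (67 of 2018), 0.902% (24 of 2662) and 0.597% (19 of 3183). CF donor 1 was far above the other 6, which lay between 0.557% and 1.24%.

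At 120 days 8 of 9 fetuses had erythroid barcodes. WT donors 1, 2 and 3 stood at 0.115% (3 of 2619), 0.719% (14 of 1946) and 0.983% (42 of 4274). CF donors 1, 2, 4, 5 and 6 stood at 0.249% (18 of 7404 over 2 libraries with 9 each), 0.397% (8 of 2017), 0.0758% (2 of 2640), 0.102% (4 of 3903) and 0.0836% (3 of 3590). CF donor 3 had 0 of 943, which allows a share of up to 0.318%. WT donor 3 alone thus gave 42 of the 94 barcodes of this age. At term 1 of 9543 barcodes of WT donor 2 (0.0105%) and 1 of 4120 of CF donor 3 (0.0244%) met the rule, and the other 5 lambs had none.

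**Figure D1:**
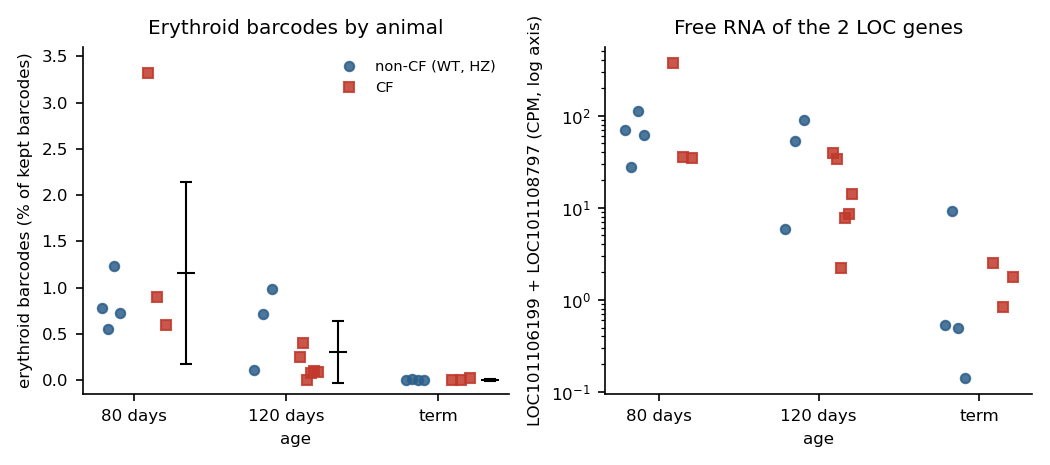
Percent of kept barcodes that met the erythroid rule in each animal (left) and the level of the LOC pair in barcodes outside the rule with under 5% of their UMIs in the pair (right, CPM on a log axis), by age, with circles for non-CF animals, squares for CF animals, each point 1 animal, and bars for the mean ± SD of an age in the left panel. The share runs from 0.557% to 3.32% at 80 days, from 0 to 0.983% at 120 days and from 0 to 0.0244% at term, and CF donor 1 at 80 days is highest in both panels.

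The mean share was 1.16% ± 0.979 (SD, n = 7) at 80 days, 0.303% ± 0.338 (n = 9) at 120 days and 0.00499% ± 0.00942 (n = 7) at term. The drop from 80 to 120 days was 0.857 percentage points (exact two-sided permutation test over animals, p = 0.00524, adjusted p = 0.0105 over the 6 share comparisons), although the ranges overlapped. From 120 days to term the difference was -0.298 points (exact permutation p = 0.00140, adjusted p = 0.00420). Between 80 days and term the animals did not overlap (difference -1.15 points, exact permutation p = 0.000583, the smallest this design can give, adjusted p = 0.00350). The unit of these tests was the animal, so the p-values measure the spread between animals. They ignore litters, although the study's animal numbers share a stem in further groups of fetuses besides the triplets and twins named above. Without CF donor 1 at 80 days the first difference was -0.4965 points (adjusted p = 0.0240 by the same exact permutation test). Erythroid barcodes had a median of 16528 UMIs at 80 days and 11381 UMIs at 120 days. With kept barcodes of at least 2000 UMIs thinned to 2000 UMIs and the rest left out, the first difference was -0.3583 points. It no longer passed (exact permutation p = 0.0916, adjusted p = 0.183), while both term comparisons did (exact permutation, adjusted p = 0.0189 for each). Thinning also takes globin-rich barcodes out of the rule, so it does not isolate depth. At 80 days barcodes with at least 90% of UMIs in the LOC pair had medians of 23 UMIs of AHSP and 17159 UMIs in all. HZ donor 2 went from 7 members to 0 with thinning. Pooling over genotype mattered, since 3 of 7 fetuses were CF at 80 days and 6 of 9 at 120 days. In non-CF animals alone the share was 0.824% ± 0.291 (n = 4) at 80 days and 0.606% ± 0.445 (n = 3) at 120 days, with overlapping ranges (exact permutation p = 0.457, adjusted p = 0.457 over 6 such comparisons, smallest possible p 0.0571). In CF animals alone it was 1.61% ± 1.49 (n = 3) and 0.151% ± 0.145 (n = 6) without overlap (exact permutation p = 0.0238, the smallest this design can give, adjusted p = 0.0857). Whether the age difference differed between CF and non-CF was not tested. Term lay below 80 days without overlap in both, and below 120 days without overlap in non-CF, with adjusted p of 0.0857 to 0.120 by the same exact permutation tests. At these group sizes no adjusted p of at most 0.05 was possible within CF or within non-CF animals. In shares of this kind, fewer erythroid cells and more cells of other types cannot be told apart. The study reports fewer erythroid cells in its naturally bred CF twins than in WT. It regards this as likely an artefact of uneven red blood cell removal. These twins are CF donors 5 and 6 at 120 days, with shares of 0.102% and 0.0836% here. Whether the lysis step removed red blood cells evenly was not tested for the age or the CF comparisons.

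No difference in the erythroid share between CF and non-CF animals passed the test, and only the comparison at 120 days could have passed. At 80 days all CF fetuses were clones and no non-CF fetus was, so loss of CFTR and cloning cannot be told apart there. At 80 days the mean was 1.61% ± 1.49 in 3 CF fetuses and 0.824% ± 0.291 in 4 non-CF fetuses (exact permutation p = 0.514, adjusted p = 0.617). Without CF donor 1 this difference turned from 0.782 to -0.07493 points. At 120 days CF fetuses had the lower mean, 0.151% ± 0.145 (n = 6) against 0.606% ± 0.445 (n = 3), and the difference of -0.454 points did not pass either (exact permutation p = 0.0714, adjusted p = 0.107). The smallest p these designs can give is 0.0571 at 80 days and at term, and 0.0238 at 120 days. At term only 2 barcodes were available for this comparison (exact permutation p = 0.857).

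Globin RNA was also found outside the erythroid barcodes. To measure this background, barcodes outside the rule with under 5% of their UMIs in the LOC pair were summed per animal. At 80 days their level of the pair was lowest in HZ donor 2 (27.7 CPM), had a median of 61.4 CPM and was highest in CF donor 1 (376 CPM). At 120 days it ran from 2.19 CPM in CF donor 3 to 89.5 CPM in WT donor 3, and at term from 0.140 to 9.29 CPM. At 80 and at 120 days the animal with the largest erythroid share also had the highest level of the pair in its other barcodes, and at term it did not (CF donor 3, 1.78 CPM, against 9.29 CPM in WT donor 2).

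The share of these non-erythroid barcodes with at least 1 UMI of the pair was 29.1% to 96.3% at 80 days, 1.06% to 71.1% at 120 days and 0.332% to 3.61% at term. A UMI of these genes therefore does not mark an erythroid cell in the fetal libraries. HBM was far rarer there, at 0.170 to 1.45 CPM at 80 days, 0 to 0.619 CPM at 120 days and 0 to 0.0246 CPM at term. AHSP stood at 0.581 to 2.27 CPM at 80 days, 0.199 to 1.01 CPM at 120 days and 0.351 to 0.853 CPM at term, with medians of 0.783, 0.619 and 0.481 CPM and overlapping ranges.

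Across animals the globin level outside the rule was compared with the erythroid share. The HBM level of all kept barcodes outside the rule, which include the globin-rich barcodes described in the next paragraph, correlated with the share over 23 animals (Pearson's r = 0.856, permutation p = 2e-05, Spearman's rho = 0.954, permutation p = 1e-05, adjusted over 12 relations 6e-05 and 4e-05), and r was 0.737 without the 2 animals farthest from the median share. Within ages r was 0.732 over 7 fetuses at 80 days (exact permutation p = 0.0327; rho = 0.714, exact p = 0.0881) and 0.898 over 9 fetuses at 120 days (exact permutation p = 0.00277; rho = 0.933, exact p = 0.00075). Without the 2 farthest animals these fell to 0.209 and 0.524, so the relation within 80 days rests on those animals. In barcodes with under 5% of their UMIs in the LOC pair, HBM gave r = 0.962 over 23 animals (permutation p = 1e-05; rho = 0.927, permutation p = 1e-05; r = 0.856 without 2 animals), with 0.974 at 80 days (exact permutation p = 0.00298, 0.550 without 2 animals) and 0.814 at 120 days (exact permutation p = 0.0109, 0.706 without 2 animals). For the LOC pair in these barcodes, r was 0.991 at 80 days (exact permutation p = 0.00536, 0.382 without 2 animals) and 0.967 at 120 days (exact permutation p = 0.00032, 0.870 without 2 animals). Both measures come from the same libraries.

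Globin-rich barcodes outside the rule also occurred. A further 85 kept barcodes had over 30% of their UMIs in the LOC pair without meeting the rule, 37 at 80 days, 48 at 120 days and 0 at term. Their median was 86.5% of UMIs in the pair, 272 genes and 7863 UMIs, with 1 UMI of AHSP, 8 of ALAS2 and 7 of HBM. Of these, 83 failed on AHSP and 42 had none. Counted together with the members they left the fall between 80 and 120 days in place (-0.974 points, exact permutation p = 0.0173, adjusted p = 0.0346). The filter on genes and mitochondrial UMIs removed another 80, 197 and 2 barcodes of this kind at the 3 ages, among 4175, 10126 and 15690 barcodes removed in all. Of these 279 globin-rich barcodes, 278 had 200 genes or fewer, and 7 had the AHSP and ALAS2 that the rule asks for. At 120 days WT donor 3 gave 82 of the 197 and CF donor 1 gave 60. The filter and the rule together therefore left out many globin-rich barcodes with few genes. The fall between 80 and 120 days was not tested with all those removed by the filter counted in.

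LOC101105437 differed between the ages within the erythroid barcodes. Its share of the UMIs of the 3 LOC genes was, at 80 days, 0.175% and 0.00314% in WT donors 1 and 3, 0.00299% and 0.179% in HZ donors 2 and 4, and 0.409%, 0.0216% and 0.00379% in CF donors 1, 2 and 3. At 120 days it was 2.20%, 3.47% and 3.91% in WT donors 1, 2 and 3, and 3.12%, 0.345%, 1.46%, 0.822% and 0.00817% in CF donors 1, 2, 4, 5 and 6. In 6 of 8 fetuses at 120 days it lay above the highest fetus at 80 days, and CF donors 2 and 6 were the exceptions. The 2 barcodes at term were at 46.3% (WT donor 2) and 40.5% (CF donor 3).

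The mean was 1.92% ± 1.49 (SD, n = 8) at 120 days and 0.113% ± 0.153 (n = 7) at 80 days, a difference of 1.804 points (exact two-sided permutation p = 0.00404, a test added after the values were seen). With only the fetuses that had at least 10 erythroid barcodes it was 3.502% ± 0.395 (n = 3) against 0.132% ± 0.159 (n = 6), without overlap (exact permutation p = 0.0238). Within non-CF fetuses it was 3.20% ± 0.886 (n = 3) against 0.0899% ± 0.100 (n = 4), without overlap (exact permutation p = 0.0571, the smallest possible), and within CF fetuses 1.15% ± 1.23 (n = 5) against 0.145% ± 0.229 (n = 3), with overlap (exact permutation p = 0.214). The free RNA of the other barcodes differed in the same direction, 1.38% ± 0.854 (n = 9) against 0.267% ± 0.271 (n = 7), with overlapping ranges (exact permutation p = 0.00507). It rested on few UMIs of the gene, 0 to 72 per fetus at 80 days and 0 to 127 at 120 days. At term this share of the other barcodes ran from 1.92% to 28.6% over 7 lambs, on 1 to 62 UMIs each. WT donor 2 and CF donor 3 at term had 2.46% and 2.42%. In the gene test across all expressed genes described below, which compares each gene's sum per animal, the log2 fold change of LOC101105437 was 3.03 (SE 1.19) and did not pass (edgeR, adjusted p = 0.396). There its level was 25.4 to 3446 CPM over 6 fetuses at 80 days and 24026, 19569 and 21007 CPM in WT donor 2, WT donor 3 and CF donor 1 at 120 days, without overlap. CF donor 1 had the highest level at 80 days, the nearest to those at 120 days. The adjusted p of this test depended on whether that fetus was in, so the gene is not called.

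Few cells carried most of this RNA. At 120 days 15 of 94 barcodes (16.0%) had at least 5% of their LOC UMIs from LOC101105437, 1, 3 and 7 in WT donors 1, 2 and 3 and 4 in CF donor 1, and they held 93.1% of the UMIs of the gene at that age. The highest of them reached 38.5%. At 80 days 2 of 178 barcodes did, 1 each in WT donor 1 and CF donor 1, with a highest value of 13.8%. No UMI of the gene was seen in 139 barcodes (78.1%) at 80 days and in 48 (51.1%) at 120 days. The barcodes with at least 5% had a median of 11281 UMIs at 120 days, near the 11428 UMIs of the rest.

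**Figure D2:**
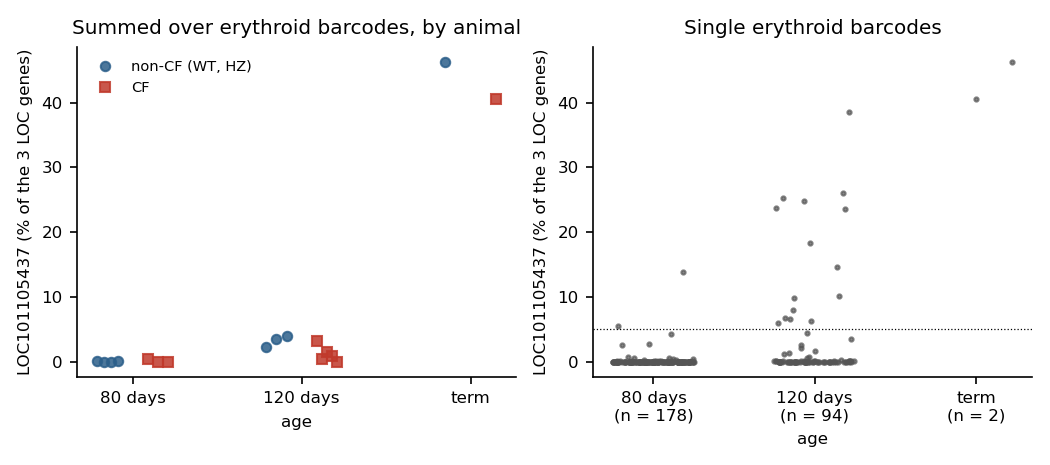
LOC101105437 as a percent of the UMIs of the 3 LOC genes, summed over the erythroid barcodes of each animal (left, circles non-CF, squares CF) and in each single erythroid barcode (right, 178, 94 and 2 barcodes, dotted line at 5%), by age. Fetuses at 80 days lie at or under 0.409%, those at 120 days between 0.00817% and 3.91%, and single barcodes reach 13.8% at 80 days and 38.5% at 120 days, while both barcodes at term are above 40%.

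The members of the class spanned a wide range of globin content. The LOC pair took under 50% of the UMIs in 45 barcodes, 50% to 80% in 43, 80% to 90% in 78 and at least 90% in 108. These ranges were chosen after the values were seen, and the values below describe them without a test. Genes detected per barcode dropped from a median of 2875 through 1131 and 614.5 to 374.5 across them, and UMIs outside the globin genes from 13559 to 1040.5. Both drops follow in part from the way the ranges are set, since a barcode with more of the pair has fewer other UMIs. The barcodes under 50% made up 19 of 178 (10.7%) at 80 days and 24 of 94 (25.5%) at 120 days, and those of at least 90% made up 89 and 19 (20.2%). In the lowest range 11 of 45 barcodes held at least 10 UMIs of duct, endocrine, stromal, endothelial or immune markers, against 5, 3 and 0 in the others.

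Genes of cell division were highest in the middle ranges as a sum, though not each of them. From the lowest to the highest range the division list summed to 49.5, 121.5, 90.1 and 23.5 per 10000 UMIs outside the globin genes. On this scale PCNA, which clamps the polymerase to DNA, went from 6.61 through 4.85 to 0 and 0.0844. MKI67, the proliferation antigen Ki-67, was at 3.02, 12.0, 2.84 and 0.0844, TOP2A (topoisomerase II alpha) at 3.94, 11.3, 12.4 and 0.253, and CENPF, a kinetochore protein, at 8.21, 31.6, 20.5 and 0.422. As sums over barcodes, MKI67, TOP2A and CENPF thus peaked in the middle ranges. PCNA, TYMS, MCM2, MCM3, MCM5, MCM6 and STMN1 were instead highest under 50%. For example, TYMS was at 2.12, 1.86, 0.198 and 0, and MCM6 at 1.52, 1.14, 0.132 and 0. UBE2C, an enzyme of mitotic exit, stayed at 19.2 in the highest range after 4.77, 15.4 and 27.3. Of 22 division genes with at least 20 UMIs, 21 were higher under 50% than at 90% and above.

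The factors of the lineage followed a middle course. Per 10000 UMIs outside the globin genes, from the lowest to the highest range, KLF1 was at 5.10, 10.7, 13.1 and 7.51, GATA1 at 2.55, 4.01, 5.54 and 3.29, and HEMGN at 5.98, 42.4, 42.7 and 13.0. TFRC, the transferrin receptor that brings iron in, was at 4.14, 17.6, 16.6 and 6.58. All 4 were highest between 50% and 90%. Without the 11 barcodes with markers of other cells the lowest range was at 7.43 for KLF1, 3.75 for GATA1, 9.96 for HEMGN and 6.70 for TFRC, so that GATA1 and TFRC then stood above the highest range. MKI67 there was at 5.15 and XPO7 at 0.867. NFE2 and SOX6, a factor that represses embryonic globin genes, instead stayed level from 80% upward, at 15.0 and 15.9, and at 22.2 and 21.8.

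Genes of heme synthesis differed in their course. FECH, which inserts the iron, was at 4.33, 15.6, 23.0 and 23.5 per 10000 UMIs outside the globin genes. CPOX was highest between 50% and 80%, at 16.8 against 6.51, 7.06 and 1.77 in the others, and ABCB10, a mitochondrial transporter needed for heme synthesis, took the same course at 2.28, 4.73, 1.58 and 0.169.

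Several genes of the late maturation list were highest in the most globin-rich barcodes. XPO7, a nuclear exportin, was at 1.95, 9.35, 87.4 and 112 per 10000 UMIs outside the globin genes, TMCC2 at 2.19, 8.93, 79.2 and 128, and TRIM10 at 2.65, 10.5, 58.3 and 82.1. The same order held for UBE2H, a ubiquitin-conjugating enzyme (1.17 to 28.3), BPGM, which makes the 2,3-bisphosphoglycerate that lowers oxygen affinity (0.282 to 20.3), EPB41 of the membrane skeleton (4.65 to 101.1), FTL, the ferritin light chain (18.7 to 356), and BCL2L1, the survival factor BCL-xL (0.417 to 7.17). Of 14 genes of the maturation list with at least 20 UMIs, 13 were lower under 50% than at 90% and above. TRIM58, MXI1, FBXO7, HAGH and UBE2L6 of that list were instead highest in a middle range, for example UBE2L6 at 1.85 between 80% and 90% and 0.338 at 90% and above. Within animals, FECH, XPO7, TMCC2, TRIM10, GPX1 and NFE2 were lower in the lowest than in the highest range in 11 of the 11 animals that had both, and MKI67, CENPF and PCNA were higher in 10 of 11. Neither the counts within animals nor the count of the maturation list were made over all genes.

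**Figure D3:**
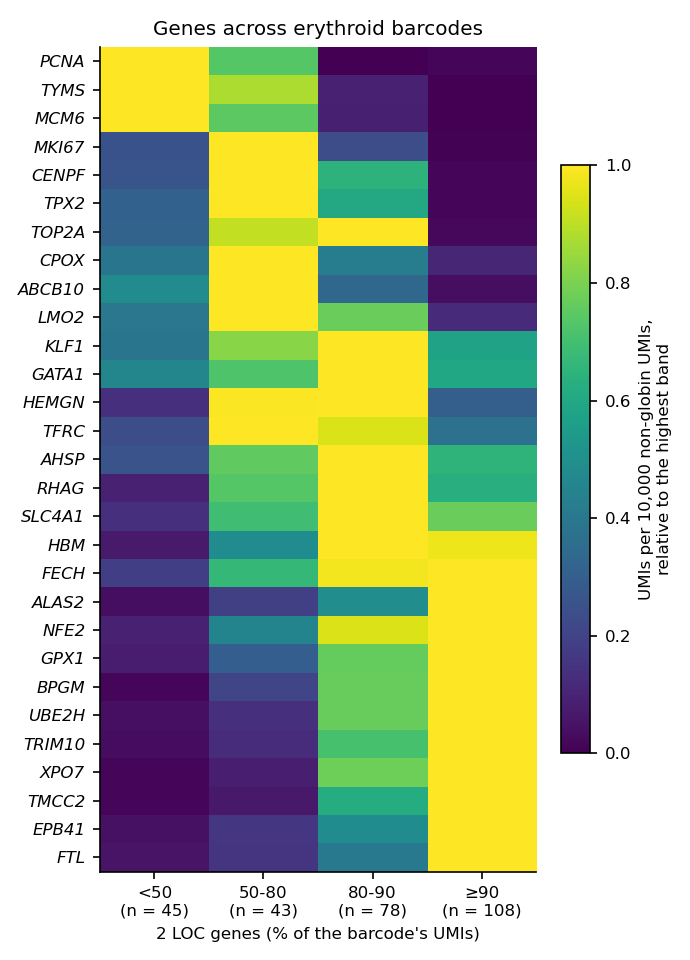
Levels of division, lineage, heme and maturation genes in erythroid barcodes by the percent of UMIs in the LOC pair (under 50, 50 to 80, 80 to 90, 90 and over; 45, 43, 78 and 108 barcodes), as a heat map of UMIs per 10000 UMIs outside the globin genes, each gene relative to its highest range (scale 0 to 1). AHSP and ALAS2 chose the barcodes and are shown as a description. XPO7 climbs from 1.95 to 112, while MKI67 drops from 12.0 in the second range to 0.0844 in the last.

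HBZ, the embryonic zeta globin, was scarce, at 0.233, 0.419, 5.87 and 0.675 per 10000 UMIs outside the globin genes, and HBQ1 was at 2.07, 4.55, 10.3 and 13.3. The 5.87 of HBZ rested on 89 UMIs in 15 barcodes. In that range 1 barcode of CF donor 1 at 80 days held 285 UMIs of HBM, HBZ and HBQ1 together, 226 of them HBM. HBM, the named globin with the highest level, was at 27.6, 190, 391 and 381.

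To compare genes between ages, UMIs were summed per animal over its erythroid barcodes. With at least 10 barcodes, 6 fetuses at 80 days (WT donors 1 and 3, HZ donor 4, CF donors 1 to 3) and 3 at 120 days (WT donors 2 and 3, CF donor 1) could be compared. This left CF at 120 days with 1 fetus. A gene could therefore pass the filter on low counts through a single fetus. The contrast gave CF donor 1 at 120 days as much weight as WT donors 2 and 3 together. Of 2981 genes tested, 8 passed (edgeR quasi-likelihood test, Benjamini-Hochberg adjusted p of at most 0.05, 0.268% of the genes), all higher at 120 days. None of the 106 genes of the erythroid lists passed, and the smallest adjusted p among them was 0.277 (edgeR). At an unadjusted p under 0.05 there were 19 of the 106, 17 of them lower at 120 days, beside 334 (11.2%) of the 2981. By DESeq2, 8 of the 2981 genes passed, of which FTL, the ferritin light chain, belonged to the erythroid lists (log2 fold change -1.78, adjusted p = 0.00674). No erythroid gene can thus be called changed between 80 and 120 days in these barcodes by the main test.

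The genes of hemoglobin and heme had overlapping levels at both ages. HBM was at 2278 to 4128 CPM with a median of 3023 CPM over the 6 fetuses at 80 days, and at 2896, 3609 and 3198 CPM in WT donor 2, WT donor 3 and CF donor 1 at 120 days (log2 fold change -0.88, SE 0.590, edgeR adjusted p = 0.567). AHSP and ALAS2 chose the barcodes, so their levels are given as a description only. AHSP was at 2747 to 7444 CPM, median 3898, and at 6492, 5202 and 4179 CPM, and ALAS2 at 1113 to 1610 CPM, median 1327, against 972, 848 and 1173 CPM. HBZ was at 0 to 53.0 CPM, median 18.3, and at 24.0, 12.3 and 0 CPM, with a fitted log2 fold change of -4.40 that did not pass (edgeR adjusted p = 0.396).

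Because the LOC pair took 79.7% of the pooled erythroid UMIs at 80 days and 55.6% at 120 days, the sign of such fold changes depended on the scale. On the scale of the main test (TMM normalised), the median log2 fold change at 120 days was -0.61 for heme synthesis (12 of 13 genes negative), -0.94 for the membrane skeleton (14 of 15), -0.63 for the erythroid factors (10 of 10), -0.83 for terminal maturation (12 of 14) and -0.39 for cell division (12 of 21), beside 0.05 for all genes tested. Counted as CPM of all UMIs, the medians were -0.04, -0.37, -0.27, -0.33 and 0.29 with 0.44 for all genes, so that cell division turned positive. On both scales the factors, membrane and maturation lists lay below the median of all genes. Per 1000000 UMIs outside the globin genes they were -0.85, -1.17 and -1.08, and all genes were at -0.08.

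**Figure D4:**
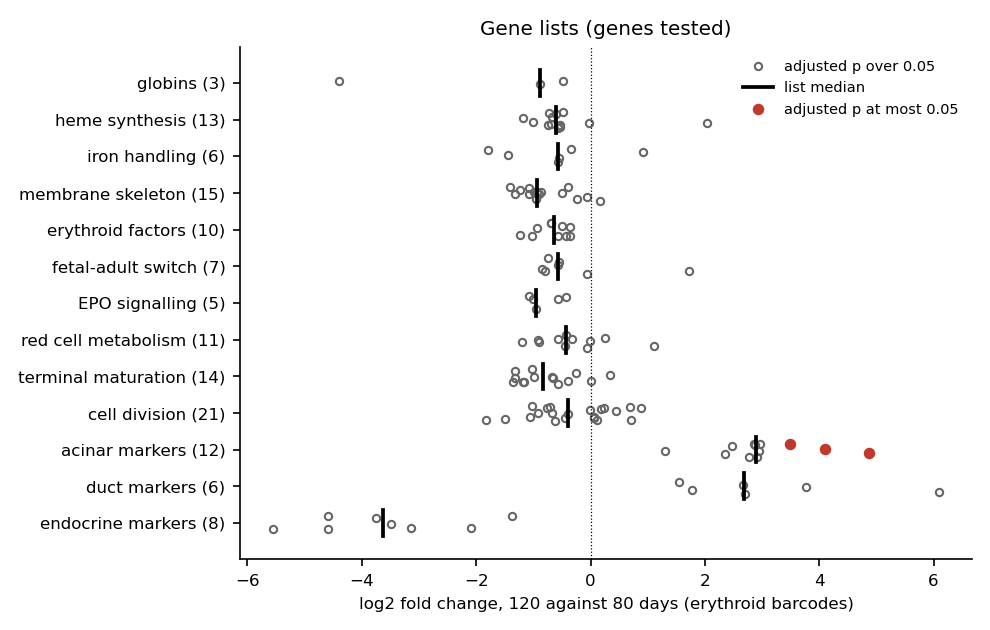
Log2 fold change of the genes of each list in erythroid barcodes, 120 against 80 days (edgeR, TMM), with 1 point a gene, filled where the adjusted p was at most 0.05, and a bar at the median of each list. Medians of the erythroid lists plotted lie between -0.95 and -0.39, those of the acinar, duct and endocrine lists at 2.89, 2.68 and -3.62, and no erythroid gene passed the test.

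Of the erythroid genes tested, EPB42 and NFIA had levels that did not overlap between ages, 1 in each direction, beside 10 genes (0.335%) lower and 95 (3.19%) higher at 120 days of all tested. EPB42, protein 4.2 of the membrane skeleton, was at 104 to 204 CPM with a median of 153 CPM over the 6 fetuses at 80 days and at 76.0, 98.5 and 98.6 CPM at 120 days (log2 fold change -1.41, SE 0.499, edgeR adjusted p = 0.317). NFIA, a transcription factor, was at 3.18 to 24.6 CPM, median 6.10, and at 32.0, 44.6 and 44.4 CPM (log2 fold change 1.72, edgeR adjusted p = 0.289). NFIA was higher outside the class, at 168 and 78.5 CPM in the barcodes with under 5% of the LOC pair, and its fold change turned to -0.8806 once barcodes with markers of other cells were left out. UROS, another enzyme of heme synthesis, went against its list at 2.82 to 13.7 CPM, median 5.43, against 7.999, 41.5 and 59.1 CPM (log2 fold change 2.04, edgeR adjusted p = 0.277). FTL was at 1224 to 3302 CPM, median 2248, and at 572, 808 and 1552 CPM (log2 fold change -1.80, edgeR adjusted p = 0.277).

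The late genes had the same appearance. XPO7 was at 581 to 1151 CPM, median 825, over the fetuses at 80 days and at 344, 409 and 803 CPM at 120 days (log2 fold change -1.33, edgeR adjusted p = 0.377). UBE2H was at 118 to 242 CPM, median 220, and at 80.0, 142 and 163 CPM (log2 fold change -1.36, edgeR adjusted p = 0.396). In both, WT donors 2 and 3 were lower than CF donor 1. KLF1 was at 79.5 to 509 CPM, median 124, and at 232, 205 and 133 CPM, and SLC4A1 at 47.9 to 105 CPM, median 76.7, and at 72.0, 90.8 and 128 CPM, without any separation of the ages.

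The 8 genes that passed were higher in the other barcodes of the same animals than in erythroid ones. They included the acinar enzymes and cofactors PLA2G1B (phospholipase A2), CELA1 (elastase) and CLPS (colipase), and AGT (angiotensinogen), GIF (gastric intrinsic factor), TNFRSF12A (a receptor of the TNF family), LOC101103454 and LOC101118831. Each had most of its CPM, summed over the fetuses, in 1 fetus. That part ran from 58.7% for CLPS (WT donor 2 at 120 days) to 91.2% for AGT (CF donor 1 at 120 days). At 120 days AGT was at 4.0, 15.4 and 251 CPM in WT donor 2, WT donor 3 and CF donor 1. PLA2G1B was at 0 to 5.22 CPM, median 3.15, in erythroid barcodes at 80 days and at 59.996, 277 and 59.1 CPM at 120 days (log2 fold change 4.10, SE 0.684, edgeR adjusted p = 0.0277), beside 434 and 1830.5 CPM in the barcodes with under 5% of the LOC pair. CLPS was at 0 to 41.3 CPM, median 0, and at 320, 126 and 49.3 CPM (log2 fold change 4.88, edgeR adjusted p = 0.0366). Of 12 acinar genes tested 3 passed, and all 12 had a positive log2 fold change. The 13 acinar genes of the list summed to 59.0 to 184 CPM per animal in erythroid barcodes at 80 days and to 138 to 15526 CPM at 120 days, where the highest value is that of WT donor 1, in which 1 of 3 barcodes held 1098 acinar UMIs. PNLIP was at 0 at both ages. In the other barcodes the list summed to 3589 to 14386 CPM at 80 days and 9605 to 68399 CPM at 120 days.

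These 8 calls were not kept under every alternative. No gene passed once barcodes with markers of duct, endocrine, stromal, endothelial or immune cells were left out (edgeR, 276 at an unadjusted p under 0.05), where 5 of the 8 genes were still tested, all with a positive fold change, such as 4.58 for CLPS and 2.91 for PLA2G1B on the log2 scale (edgeR adjusted p = 0.0897 and 0.176). Leaving out single fetuses gave 0 genes without WT donor 1 or CF donor 2 at 80 days or WT donor 3 at 120 days, 1 without WT donor 3 and 4 without CF donor 1 at 80 days, 2 of which were among the 8, 2 without CF donor 1 at 120 days, both lower and neither among the 8, and 29 without WT donor 2 at 120 days, which included all 8. The fit without CF donor 1 at 120 days had no CF fetus of that age left. It therefore compared the ages in non-CF fetuses only, and 5 of the 8 genes were tested in it. The part of acinar RNA in the 8 calls beyond the counts above was not tested.

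A comparison of the age difference in erythroid barcodes with that in the other barcodes of the same animals passed for 5 of 15147 genes, with animal as block. The genes were chosen by their values here. In APOBEC3Z1, a cytidine deaminase, the log2 difference was -5.14 (edgeR adjusted p = 1.2e-06), in PFKFB1, a regulator of glycolysis, -5.94 (3.8e-06), in ARG1, arginase, -3.18 (0.0196) and in ICAM4, a red cell adhesion molecule, -3.15 (0.0408). ICAM4 is in the membrane skeleton list, and its own levels in erythroid barcodes overlapped, at 16.9 to 76.7 CPM at 80 days and at 19.999, 21.5 and 29.6 CPM at 120 days (log2 fold change -1.33, edgeR adjusted p = 0.389). APOBEC3Z1 itself was at 41.8 to 161 CPM in erythroid barcodes at 80 days and at 84.0, 16.9 and 14.8 CPM at 120 days, so WT donor 2 at 120 days lay within the range of 80 days. PF4, a platelet chemokine, was the gene with a positive difference, 4.45 (0.00514), and was at 0 to 5.64 CPM at 80 days and at 68.0, 21.5 and 0 CPM at 120 days.

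Between CF and non-CF fetuses at 80 days, no erythroid gene passed the test either. With at least 20 erythroid barcodes, WT donor 1 and HZ donor 4 could be set against CF donors 1 and 2. WT donor 3 at 120 days was in the same fit as a group of 1. A gene could therefore pass the filter on low counts through a single fetus, and the count of genes below cannot be read as a difference shared by the fetuses of a group. Of 2913 genes tested 27 passed (edgeR, adjusted p of at most 0.05, 0.927% of the genes), all lower in CF, and 0 of the 108 genes of the erythroid lists did (smallest adjusted p = 0.611). The 27 genes were each highest in 1 fetus, 21 in WT donor 1, among them the endocrine genes CHGB and PCSK1, and 6 in HZ donor 4, among them S100A8 and S100A9 of granulocytes. For 24 of the 27 the level was higher in the other barcodes than in the erythroid ones. With at least 10 barcodes per animal 30 genes passed, 5 higher and 25 lower in CF, and 14 were shared with the 27. With at least 20, the count was 6 without WT donor 1, 62 without HZ donor 4, 14 without CF donor 1, and 4 without CF donor 2. Each of these leaves 1 fetus on one side and 1 residual degree of freedom, so the lone fetus is assumed to vary like the other groups. It was 1 without the barcodes that held markers of other cells, where 1 of the 27 genes was still tested, and 0 without WT donor 3 at 120 days, where 1068 genes and 0 of the 27 were tested. The comparison of erythroid genes between CF and WT at 120 days and at term had too few barcodes per animal to be made.

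Both barcodes at term differed from each other in kind. That of WT donor 2 had 60934 UMIs over 4008 genes with 2.20% of UMIs in the LOC pair, 37 UMIs of AHSP, 6 of ALAS2 and 21 of HBM, beside 4965 UMIs of acinar genes and 69 of other cell markers. That of CF donor 3 had 3080 UMIs over 294 genes with 47.8% in the LOC pair, 15 UMIs of AHSP, 7 of ALAS2 and 24 of HBM, and no UMI of duct, endocrine, stromal, endothelial or immune markers. Of the 3 LOC genes, LOC101106199 had 0 UMIs in the first and 168 in the second, LOC101105437 had 1155 and 1001 UMIs, and LOC101108797 had 1342 and 1303 UMIs.

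Markers of other cell types were low in most erythroid barcodes. Macrophage markers gave at most 4.62 CPM in any animal at 80 or 120 days, with CSF1R at 0 at 120 days and C1QB and CD14 at 0 at both ages. Endocrine markers summed to 72.4 to 17768 CPM per animal at 80 days and 0 to 167 CPM at 120 days. The median number of acinar UMIs per barcode was 1 at 80 days and 6.5 at 120 days, and 1 of 178 and 25 of 94 barcodes held at least 10. At least 10 UMIs of duct, endocrine, stromal, endothelial or immune markers were found in 11 barcodes at 80 days, 7 at 120 days and 1 at term. Their part in the results beyond the counts given without them was not tested.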

How the data were processed

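Cells of sheep pancreas were captured with 10x Genomics 3′ chemistry. The authors deposited UMI counts per gene and barcode, made with Cell Ranger 3.1.0 (submitters' processing notes) on the genome build Oar_v4.0. The counts were not normalized, no doublet removal was stated, and none was done here. The members and gene lists were chosen with earlier results of these data known.

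Barcodes with over 200 and under 6000 of 24478 genes and under 25% mitochondrial UMIs were kept. Shares were computed per animal, taking the average where an animal had 2 libraries, and tested by exact permutation of animals, two-sided (scipy 1.17.1, numpy 2.4.6, pandas 2.3.3, Python 3.11.15) with Benjamini-Hochberg adjustment over 6 comparisons. Pooled shares had Wilson intervals of 95%, 0.946% to 1.27% at 80 days, 0.262% to 0.392% at 120 days and 0.00162% to 0.0215% at term, and a count of 0 allows up to 3 counts. Both cover counting error only.

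UMI counts were summed per animal over its erythroid barcodes and tested by edgeR 4.0.16 in R 4.3.3 (TMM, filterByExpr, quasi-likelihood, group means of age and disease state, contrast averaged over disease states). At least 20 barcodes per animal had been planned. Only 1 fetus at 120 days reached that, so at least 10, which had also been planned, was used between ages (5 residual degrees of freedom) and as an alternative between CF and non-CF at 80 days. In simulated counts of this comparison with 1815 genes, 131 (69.3%) of 189 genes with a log2 change of 2 were recovered, with 2 false calls. The changed genes were drawn from those above the median level, and all animals shared 1 mean profile. The real comparison tested 2981 genes, so recovery of its less abundant genes was not simulated. The text names any gene of the erythroid lists, and beside these up to 10 genes per direction that passed without overlap, at 50 CPM or more and at least 2 times the level of the other barcodes. No gene met the second rule. Alternatives were DESeq2 1.42.0, other normalizations and filters, thinning, a replicate block and leaving out each animal. Bands of globin content, the test of LOC101105437, the LOC pair in other barcodes, the age tests within genotypes and 2 further scalings were added after seeing the data. RefSeq's table is of another assembly and was used for names and neighbours only. Some genes are not reported here.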

Additional observations from a re-analysis of the deposited data

Results flagged for a closer look

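Among 20 groups of 4 to 9 animals checked for an animal far from the others, of which chance gives about 1 in 20, 6 values stood apart. The erythroid share of CF donor 1 at 80 days was 3.32%, with the next animal at 1.236%, and the LOC pair in its other barcodes was at 376.2 CPM, with the next at 113.9 CPM. At term CF donor 3 had a share of 0.02444%, with the next at 0.01048%, and WT donor 2 had 0.01048% while the other 3 WT lambs had 0. Both values at term rest on 1 barcode each. WT donor 2 at term also stood apart in the LOC pair of its other barcodes, at 9.291 CPM, with 2.482 CPM as the next among all lambs and 0.5264 CPM as the next among WT lambs. Globin-rich barcodes were also found in data outside the comparisons. The filter on genes and mitochondrial UMIs had removed 80 barcodes at 80 days and 197 at 120 days with over 30% of their UMIs in the LOC pair, against 2 at term. These were among 4175, 10126 and 15690 removed barcodes.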

How the results depend on the processing

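The falls of the erythroid share with age kept their direction under every alternative tried. None of these counted the globin-rich barcodes that the filter removed, unless they met the rule. The filter removed 80 of them at 80 days, among 4175 removed barcodes, and 197 at 120 days, among 10126, beside 178 and 94 members. WT donor 3 gave 82 of the 197 and CF donor 1 gave 60. Whether the fall from 80 to 120 days holds with these removed barcodes was not tested. The fall from 80 to 120 days no longer passed with barcodes of at least 2000 UMIs thinned to 2000 UMIs (-0.3583 points), which also takes globin-rich barcodes out of the rule. With non-CF or CF animals alone no fall passed (-0.2186 and -1.455 points from 80 to 120 days, -0.6029 and -0.1431 from 120 days to term, -0.8216 and -1.598 from 80 days to term), in groups of 3 to 6 animals. None could have, since at these group sizes no adjusted p of at most 0.05 was possible. Leaving out each animal gave -0.957 to -0.497 points for 80 to 120 days, -0.336 to -0.213 for 120 days to term and -1.26 to -0.794 for 80 days to term. The CF difference at 80 days ran from -0.0749 (without CF donor 1) to 1.29 points, at 120 days from -0.700 to -0.266, and at term from -0.00262 (without CF donor 3) to 0.0096. None passed, and at 80 days and at term none could at these group sizes. The difference in LOC101105437 share passed in all 15 repeats without 1 animal (1.52 to 2.08 points). The cause of these shifts was not tested.

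Counts of called genes were unstable. Between 120 and 80 days, 8 genes passed in the main test, 66 without the filter on low counts, 0 without barcodes of other markers, 5 as a difference from the other barcodes, and 0 to 29 without 1 animal. DESeq2 also called 8, of which 1 was shared. With the donor number as replicate block 25 passed. The numbers do not pair the animals, since the correlations of same-numbered samples were -0.205, 0.0442, -0.0406, 0.0661 and 0.0628. Between CF and non-CF at 80 days, 27 passed in the main test, 2 by DESeq2, 0 without the filter on low counts, 1 without barcodes of other markers, 62 without the HZ fetuses, 30 with at least 10 barcodes per animal and 0 to 62 without 1 animal, the 0 with fewer genes tested. The block could not be fitted there, and no test at 50 barcodes per animal was possible. In the comparison with the other barcodes the log2 difference was -0.07255 for LOC101105437 and 0.6097 for KLF1, and NFIA was at -0.8806 without barcodes of other markers, the directions opposite to the main ones. The test between ages had 3 fetuses and 74 barcodes at 120 days, and changes under 2 on the log2 scale were not simulated.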
